A study of Mus musculus with 6 samples.

Results

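C1q-like proteins (C1ql) and cerebellins (Cbln) are small secreted proteins that hold the sending and receiving sides of a synapse together, and Adgrb3 (also called BAI3) is the cell-surface receptor of the C1ql proteins. The 9 genes described here, C1ql1 to C1ql4, Cbln1 to Cbln4 and Adgrb3, were chosen by name and matched by Ensembl identifier to 9 of the 54532 gene rows of the count table. The family was taken up with an earlier result of these data known, namely that C1ql4 was lower in the knockout by DESeq2. The differences between the groups are therefore given as a description, and nothing is supported with them.

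Whole-tissue RNA-seq was made from the dorsal root ganglia of 8-week-old C57BL/6 mice, where the cell bodies of sensory neurons lie next to the spinal cord. In 3 libraries the labelled genotype was Adv-Cre+/hdac2-flop++ (Hdac2 cKO): Cre recombinase under the Advillin promoter, active in primary sensory neurons, with floxed Hdac2. The other 3 libraries came from littermates labelled hdac2-flop++, which carried floxed Hdac2 and no Cre (WT). No group carried Cre alone, and nothing in the labels says whether a library held 1 animal or several. The p-values measure only the spread between these libraries. Whole ganglia also hold glia, vessel cells and blood, and in bulk RNA fewer cells of a type and less RNA per cell cannot be told apart.

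Libraries held 18943595 to 42070531 reads assigned to genes. Hdac2 stood at 1715 to 3498 normalised read counts in WT and at 371.5 to 535.0 in Hdac2 cKO. The libraries numbered 3 stood apart in both groups. The chi-square per gene was 388 and 273 between WT 3 and WT 1 and WT 2, against 75.6 between those libraries. For Hdac2 cKO 3 it was 133 and 136 against Hdac2 cKO 1 and 2, which differed by 17.8. Sensory neuron markers were present in all libraries, and 8 of 14 were lower in the knockout, the median difference being -0.01 on the log2 scale. Skeletal muscle markers were lower for all 17 tested, with a median of -3.56. Leaving out Pvalb, which large sensory neurons also express, their summed level was 3382 to 13000 normalised read counts in WT and 292.4 to 1693 in Hdac2 cKO. Schwann cell markers were lower for 8 of 10 tested (median -0.41), with summed levels of 289400 to 386100 in WT and 179800 to 247100 in Hdac2 cKO. Markers of non-peptidergic and itch neurons were higher for 8 and lower for 2 of 10 tested (median 0.47). Fibroblast markers were lower for 4 and higher for 1 of 5 tested (median -0.16).

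Each C1ql and Cbln protein ends in a globular C1q domain, the fold first known from complement C1q, and assembles into trimers and larger complexes. C1ql1 is released by climbing fibres onto Purkinje cells, where Adgrb3 receives it, and C1ql2 and C1ql3 come from mossy fibres of the hippocampus, where they recruit kainate receptors. Cbln1 is released by cerebellar granule cells and bridges neurexin on the sending side with a receptor on the receiving side.

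The coding sequences show which members are close relatives, and they bear on whether reads could be shared. Between C1ql genes 72.39 to 75.98% of aligned coding bases were identical, between cerebellin genes 64.26 to 75.13%, and between a C1ql and a cerebellin gene 56.04 to 65.67%. C1ql4 was closest to C1ql1, at 75.95% over 711 aligned bases. Shown here are the 120 coding bases of C1ql4 around its longest run shared with another C1ql gene (coding bases 525 to 644, counted from the A of the start codon, from GENCODE M21 transcripts on GRCm38), with the aligned bases of the other genes beneath it. Capitals mark bases that differ from C1ql4.
C1ql4: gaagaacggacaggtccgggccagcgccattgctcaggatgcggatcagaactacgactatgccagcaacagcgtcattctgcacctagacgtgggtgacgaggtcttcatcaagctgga
C1ql1: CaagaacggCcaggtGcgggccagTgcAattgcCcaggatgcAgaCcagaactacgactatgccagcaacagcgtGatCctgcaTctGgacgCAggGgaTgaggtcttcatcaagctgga
C1ql2: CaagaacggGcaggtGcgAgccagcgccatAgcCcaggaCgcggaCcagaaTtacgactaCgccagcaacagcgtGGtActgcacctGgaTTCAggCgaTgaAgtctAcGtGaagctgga
C1ql3: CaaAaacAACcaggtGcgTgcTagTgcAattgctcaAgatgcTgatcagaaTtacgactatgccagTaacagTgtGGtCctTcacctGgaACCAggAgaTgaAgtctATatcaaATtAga

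In this stretch C1ql1 differed from C1ql4 at 16 bases, C1ql2 at 24 and C1ql3 at 32. The longest run that C1ql4 shared with C1ql1 was 29 bases, and with C1ql2 and C1ql3 it was 14 and 15 bases. The longest run in any pair of the family was 38 bases, between C1ql2 and C1ql3. No source used here gives the read length or the treatment of multi-mapped reads. C1ql4 had 918 reads in WT 3, the library in which its closest relative C1ql1 had 0. Only coding bases were compared, and whether reads were shared between members was not tested.

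**Figure D1:**
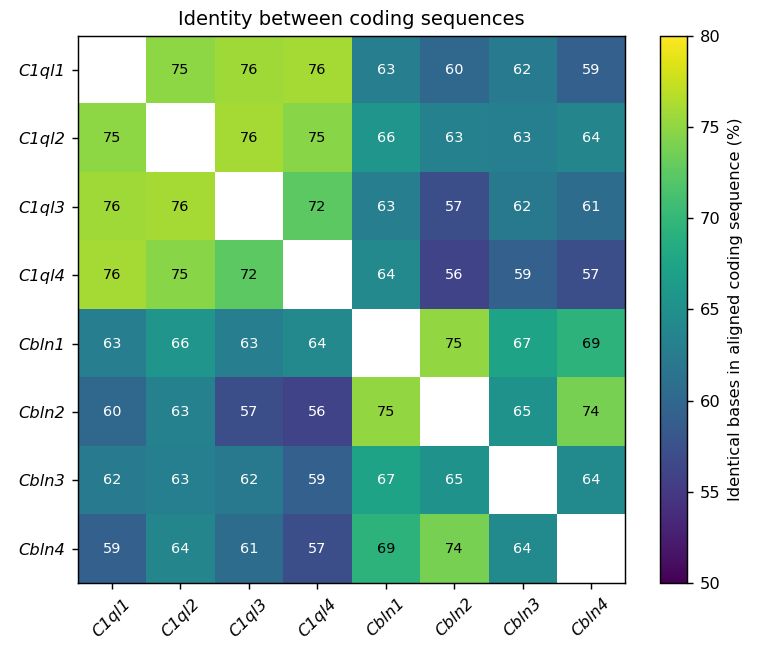
Share of identical bases (%) in pairwise aligned coding sequences of the 8 ligand genes, as a colour scale and as printed values; the blank diagonal is each gene against itself. The C1ql genes form a block at 72.39% and above, while every C1ql and cerebellin pair lies at 65.67% or below.

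Levels between genes were compared as RPKM, the reads of a gene divided by its exon length and by the library's total. C1ql4 and Cbln2 were the most abundant members in WT ganglia, at 17.6 ± 6.64 and 10.1 ± 4.25 RPKM (SD, n = 3 each). Of the genes tested, 83.2% lay below C1ql4 and 73.2% below Cbln2 in mean WT level. The ranges of C1ql4 and Cbln2 overlapped in WT, so their order there is within the spread between libraries. In Hdac2 cKO their order was the other way round in all 3 libraries, with C1ql4 at 3.96 ± 0.73 and Cbln2 at 11.5 ± 0.641 RPKM (SD, n = 3 each).

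A middle group held C1ql3 (1.25 ± 0.881), Cbln1 (1.20 ± 0.232), C1ql1 (1.13 ± 1.32) and Adgrb3 (1.02 ± 0.30 RPKM, SD, n = 3 each in WT), whose levels did not differ beyond their spread. C1ql2, Cbln4 and Cbln3 were near the limit of detection, at 0.187 ± 0.258, 0.0775 ± 0.0480 and 0.0489 ± 0.0141 RPKM (SD, n = 3 each in WT). Their summed reads over the 6 libraries were 47, 79 and 81, against 2569 for C1ql4 and 5548 for Cbln2. C1ql4 thus made up 80.8, 82.4 and 96.7% of the summed RPKM of the C1ql genes across WT 1 to 3, against 62.5, 56.9 and 81.1% across Hdac2 cKO 1 to 3.

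**Figure D2:**
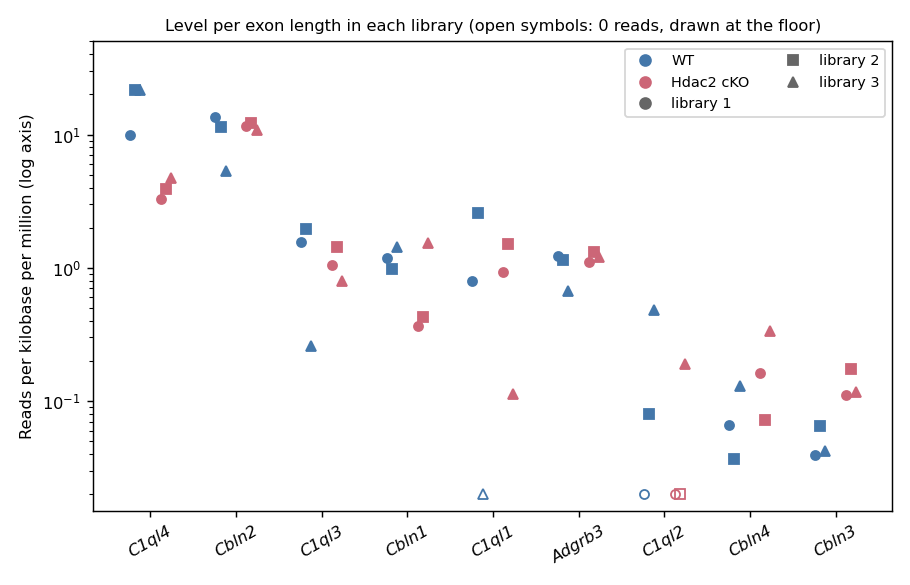
RPKM, reads per exon length and library total (log axis), of the 9 genes in each library, ordered by the WT mean; colours give the group, shapes the library number, and open symbols mark 0 reads. C1ql4 is the highest member in WT 2 and WT 3, and in Hdac2 cKO it lies below Cbln2 in every library.

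C1ql4 (ENSMUSG00000001076, mm10 chromosome 15, 99084086 to 99087817, minus strand) was the only member lower in the knockout without overlap between groups. The protein binds Adgrb3 and is known outside the nervous system as a brake on myoblast fusion, which it exerts through that receptor. It gave 405.9, 894.9 and 938.3 normalised read counts across WT 1 to 3, against 135.4, 160.2 and 204.9 across Hdac2 cKO 1 to 3. Every knockout library lay below every WT library, and WT 1 was the lowest of its group. The knockout mean of 166.8 ± 35.24 was 0.224 of the WT mean of 746.3 ± 295.6 (SD, n = 3 each). These values rest on 460, 601 and 918 reads in WT and 134, 163 and 293 in Hdac2 cKO.

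Fitted by limma on log2 (value + 1), the scale of every log2 fold change given here unless another tool or setting is named, the difference of Hdac2 cKO from WT for C1ql4 was -2.08 (SE 0.39, 95% confidence interval -2.98 to -1.18). By p it ranked 6 of the 18410 genes tested, where Hdac2 itself ranked 1. In the limma fit its adjusted p was 0.927, so it was not called, and limma called 0% of genes (0 of 18410, with 341 at an unadjusted p under 0.05). DESeq2 on the recovered reads gave a log2 fold change of -2.18 (SE 0.42, adjusted p = 0.000588), the value for which the family was taken up. DESeq2 called 0.156% of genes (28 of 17951), and C1ql4 was the 1 member among them. edgeR's quasi-likelihood test called no gene (0 of 18410, with 390 at an unadjusted p under 0.05), and its adjusted p for C1ql4 was 0.978.

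Leaving out each library in turn gave log2 fold changes of C1ql4 from -2.47 (without WT 1) to -1.87 (without WT 3), and without both libraries numbered 3 it was -2.03. Within same-numbered libraries the ratio of Hdac2 cKO to WT was 0.334, 0.179 and 0.218 for numbers 1, 2 and 3. With the replicate block DESeq2 gave -2.11 (SE 0.33, adjusted p = 1.74e-07) and called 0.456% of genes (79 of 17339). With the same block C1ql4 was not called by limma (-2.08, adjusted p = 0.674) or by edgeR (-2.11, adjusted p = 0.77).

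Muscle markers were lower in the knockout as C1ql4 was. Without Pvalb they came to sums of 13000, 5274 and 3382 across WT 1 to 3, against 438.5, 1693 and 292.4 across Hdac2 cKO 1 to 3. No muscle marker was at 0 in all libraries. The part of muscle, Schwann cell or other cell type RNA in the C1ql4 difference was not tested.

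The sequence before C1ql4 is shown because it is the member that differed most. It comes from the RefSeq promoter table (GRCm38.p6, chr15:99087818-99087978, minus strand) and ends at the base before the GENCODE start of the gene. Capitals mark CpG dinucleotides, the sites of DNA methylation.
C1ql4 upstream: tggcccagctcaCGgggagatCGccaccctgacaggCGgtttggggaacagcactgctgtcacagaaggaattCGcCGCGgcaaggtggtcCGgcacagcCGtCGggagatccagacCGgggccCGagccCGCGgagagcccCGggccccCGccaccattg

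These 161 bases held 15 CpG dinucleotides. The full 300-base RefSeq window of C1ql4 held 28 and was 70.0% G or C, against medians of 7 and 52.7% over 32841 promoters of the same length. The table held 6 of the 9 genes; Cbln1, Cbln2 and C1ql1 had no entry. The CpG counts of the other members were 25 for C1ql3, 23 for C1ql2, 16 for Adgrb3, 15 for Cbln4 and 2 for Cbln3. On both strands, GGGCGG (the GC box, in 35.7% of all promoters) was found in Adgrb3, C1ql2, C1ql3 and Cbln4 and not in C1ql4 or Cbln3. TATAAA (the TATA box, in 13.6%), CACGTG (7.15%) and CAGCTG (16.3%), both E-boxes, and TGACGTCA (the cyclic AMP response element, in 1.79%) were in none of the 6 windows. TGACG, the beginning of that element, was found once each in C1ql4 and Cbln4 and in 20.8% of all promoters. A match of letters is a description and not a site.

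Genes beside C1ql4 were read as well, namely the 3 nearest tested on each side. Dnajc22, a DnaJ chaperone gene that starts 5353 bases away, gave 26.47, 47.65 and 54.17 normalised read counts across WT 1 to 3, against 15.16, 20.64 and 11.19 across Hdac2 cKO 1 to 3. Its groups did not overlap either, but it rests on 15 to 53 reads and was not called (log2 fold change -1.37, SE 0.60; limma adjusted p = 0.927). The other 5, Troap, Prph, Tuba1c, Spats2 and Kcnh3, overlapped between groups, with log2 fold changes of 0.87, -0.35, 0.73, 0.10 and -0.04. Prph, which encodes peripherin, an intermediate filament of sensory neurons, lies 25108 bases from C1ql4. Among genes with a mean of at least 50 normalised read counts, those with the pattern most like C1ql4 over the 6 libraries were Otoa (Pearson r = 0.990), Hax1 (0.987) and Gm2415 (0.985), of 14559 compared. These 3 were picked for the highest r over 6 libraries that differ by group, and all 3 were likewise lower without overlap. Otoa, an inner ear matrix protein gene, had means of 339.4 ± 58.15 (WT) and 218.1 ± 21.99 (Hdac2 cKO; SD, n = 3 each).

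**Figure D3:**
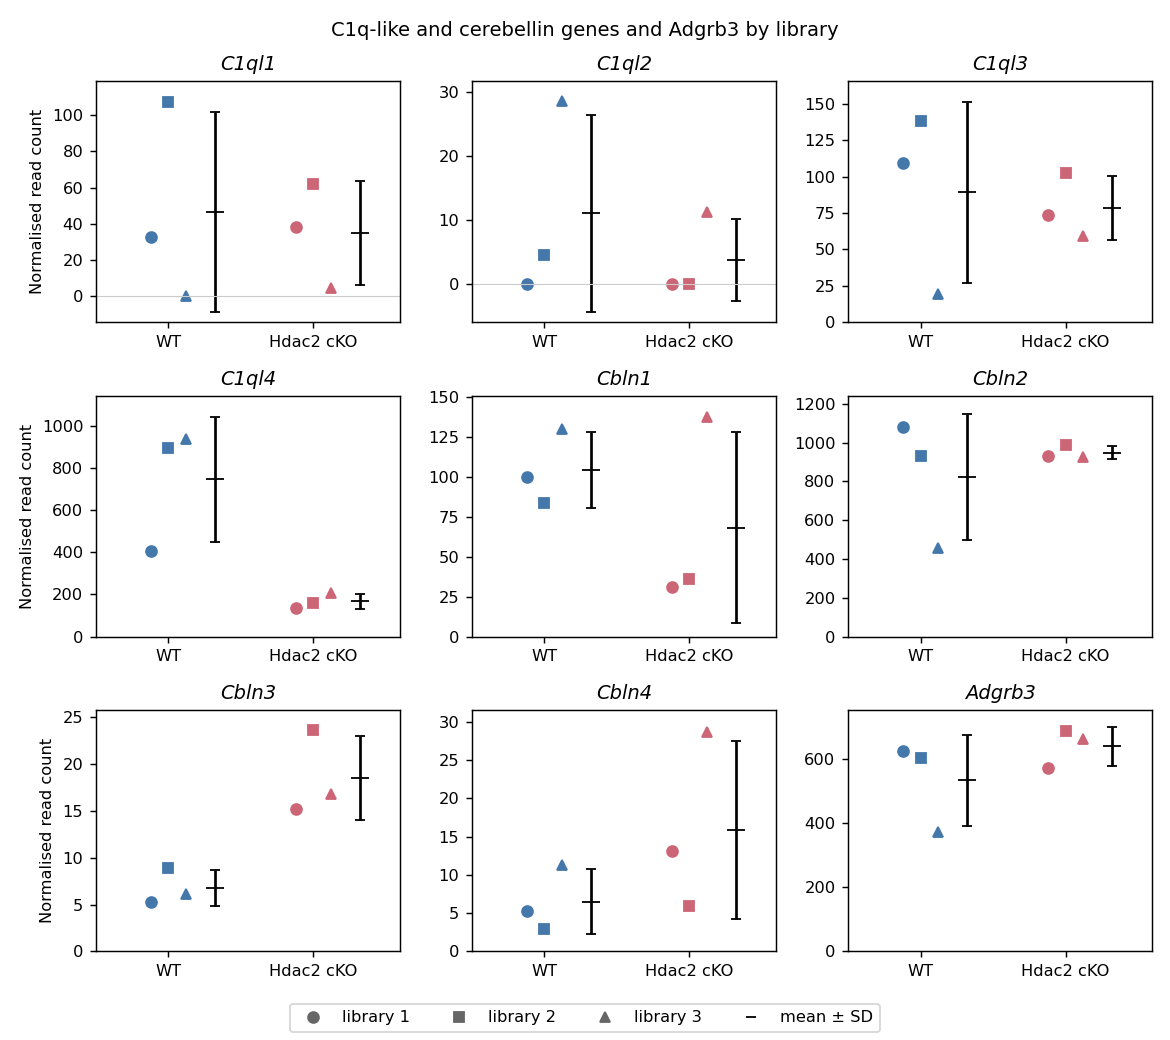
Normalised read counts of each gene in the 3 WT and 3 Hdac2 cKO libraries; shapes give the library number, and bars the mean ± SD. C1ql4 and Cbln3 are the members whose groups do not overlap, and WT 3 is the lowest WT library for C1ql1, C1ql3, Cbln2 and Adgrb3.

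The other C1ql genes overlapped between groups. C1ql1 (ENSMUSG00000045532, chromosome 11, 102939264 to 102946688) gave 32.65, 107.2 and 0 normalised read counts across WT 1 to 3, against 38.39, 61.92 and 4.896 across Hdac2 cKO 1 to 3. The libraries numbered 3 were the lowest of both groups, and the groups overlapped. The 0 in WT 3 allows up to 3.07 normalised read counts, by counting error only. The mean was lower in Hdac2 cKO (35.07 ± 28.66 against 46.62 ± 54.95, SD, n = 3 each), yet the log2 fold change was 0.67 (SE 1.79), and it was -1.30 without WT 3.

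C1ql3 (ENSMUSG00000049630, chromosome 2, 13003457 to 13011806) gave 109.4, 138.5 and 19.42 across WT 1 to 3, against 73.76, 102.2 and 59.45 across Hdac2 cKO 1 to 3. WT 3 was again the lowest library, and in the libraries numbered 1 and 2 the knockout was the lower of the pair. The log2 fold change was 0.19 (SE 0.75) with all libraries and -0.68 without WT 3. The opposite-strand models Gm37811 and Gm37824 share 1547 and 80 exon bases with C1ql3, so its count is uncertain where strand was not used. C1ql2 (ENSMUSG00000036907, chromosome 1, 120340582 to 120343174) was at 0, 4.467 and 28.62 across WT 1 to 3, against 0, 0 and 11.19 across Hdac2 cKO 1 to 3. It was the only member that did not pass the filter of 10 or more in at least 3 libraries. Its reads came mostly from the libraries numbered 3 of both groups.

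Across libraries C1ql1 and C1ql3 followed each other (r = 0.96 over 6 libraries) and C1ql4 did not follow them (r = -0.29 with C1ql1 and -0.26 with C1ql3). Both C1ql1 and C1ql3 were lowest in WT 3 and next lowest in Hdac2 cKO 3, the libraries that stood apart from their groups. Without C1ql4 the sums over C1ql genes were 142.1, 250.1 and 48.04 across WT 1 to 3, against 112.1, 164.1 and 75.54 across Hdac2 cKO 1 to 3. The lower C1ql sum of the knockout, 247.5 to 324.3 against 547.9 to 1145, was carried by C1ql4.

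Among the cerebellins, Cbln2 (ENSMUSG00000024647, chromosome 18, 86711110 to 86718283), which binds neurexins and delta receptors, was the abundant member and did not separate the groups. It gave 1081, 930.6 and 457.9 across WT 1 to 3, against 930.5, 985.8 and 927.4 across Hdac2 cKO 1 to 3. Apart from WT 3 the libraries lay close together. The log2 fold change was 0.29 (SE 0.34, 95% confidence interval -0.50 to 1.09), and -0.08 without WT 3. The interval reaches 1.09 on the log2 scale, so these libraries do not show that its level was alike in both groups.

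Cbln1 (ENSMUSG00000031654, chromosome 8, 87468405 to 87472609) gave 99.71, 83.38 and 129.8 across WT 1 to 3, against 31.32, 36.37 and 137.1 across Hdac2 cKO 1 to 3. Hdac2 cKO 1 and 2 lay below all WT libraries, while Hdac2 cKO 3 was the highest of all 6. Its fitted difference of -0.91 (SE 0.62; adjusted p = 0.927 by limma) became -1.58 without Hdac2 cKO 3 (limma adjusted p = 0.846). The 3 genes most like Cbln1 over the libraries included Pou4f3, a POU homeobox factor of sensory cells (r = 0.969).

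Cbln3 (ENSMUSG00000040380, chromosome 14, 55878913 to 55884392), which needs Cbln1 to be secreted, gave 5.294, 8.934 and 6.132 across WT 1 to 3, against 15.16, 23.59 and 16.79 across Hdac2 cKO 1 to 3. Every knockout library was higher, with ratios of 2.86, 2.64 and 2.74 in the same-numbered libraries. The gene passed the filter only through the knockout libraries, where it was high, and so had to differ. It rests on 6 reads in each WT library and on 15, 24 and 24 in Hdac2 cKO. Its log2 fold change was 1.33 (SE 0.75, 95% confidence interval -0.43 to 3.09; limma adjusted p = 0.927).

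Cbln4 (ENSMUSG00000067578, chromosome 2, 172036233 to 172043466), which binds neurexins and the netrin receptors Dcc and Neo1, gave 5.294, 2.978 and 11.24 across WT 1 to 3, against 13.13, 5.897 and 28.68 across Hdac2 cKO 1 to 3. The groups overlapped, although the knockout library was the higher of each same-numbered pair, by 2.48, 1.98 and 2.55 times. It rests on 2 to 41 reads a library. It had a log2 fold change of 1.08 (SE 0.98; adjusted p = 0.927 by limma).

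Adgrb3 (ENSMUSG00000033569, chromosome 1, 25067476 to 25829707, minus strand) spans a far longer locus than its ligands, with 18559 exon bases against 1474 for C1ql4. The receptor gave 626.5, 604.5 and 371.0 across WT 1 to 3, against 570.8, 686.0 and 660.9 across Hdac2 cKO 1 to 3. WT 3 was low and the other libraries lay between 570.8 and 686.0. The log2 fold change was 0.29 (SE 0.27, 95% confidence interval -0.34 to 0.93; limma adjusted p = 0.927), and 0.05 without WT 3. Across libraries Adgrb3 followed Cbln2 (r = 0.95 over 6 libraries), and both were lowest in WT 3.

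Of the 8 members that passed the filter, C1ql4 was lower and Cbln3 higher without overlap between groups. Over all genes tested the groups did not overlap for 8.54% (1572 of 18410; 3.91% lower and 4.63% higher), and as the family was chosen with this contrast known, nothing is read from the count. The members' log2 fold changes ran from -2.08 to 1.33. The widest intervals were those of C1ql1, from -3.53 to 4.87, and Cbln4, from -1.20 to 3.36.

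**Figure D4:**
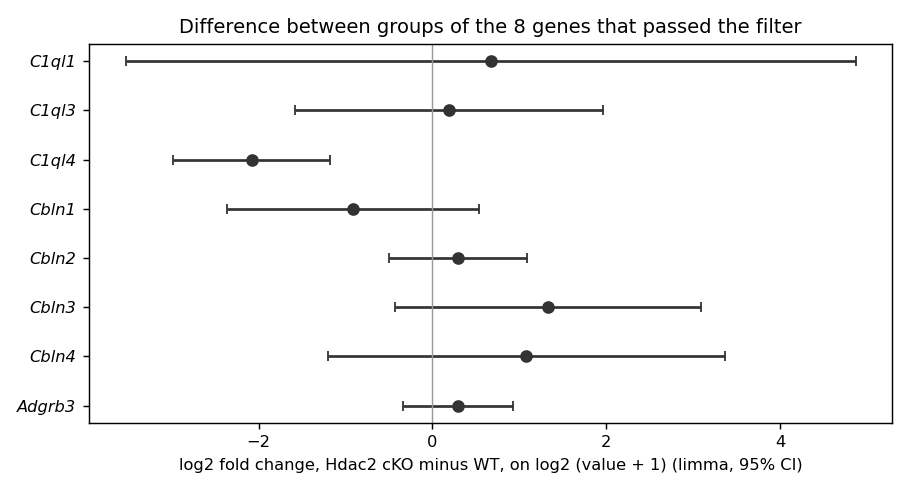
Difference of Hdac2 cKO from WT for the 8 tested genes, fitted on log2 (value + 1), with the 95% confidence interval of the limma fit; the vertical line marks no difference. C1ql4 at -2.08 is the member whose interval lies clear of 0, before any adjustment over genes.

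**Figure D5:**
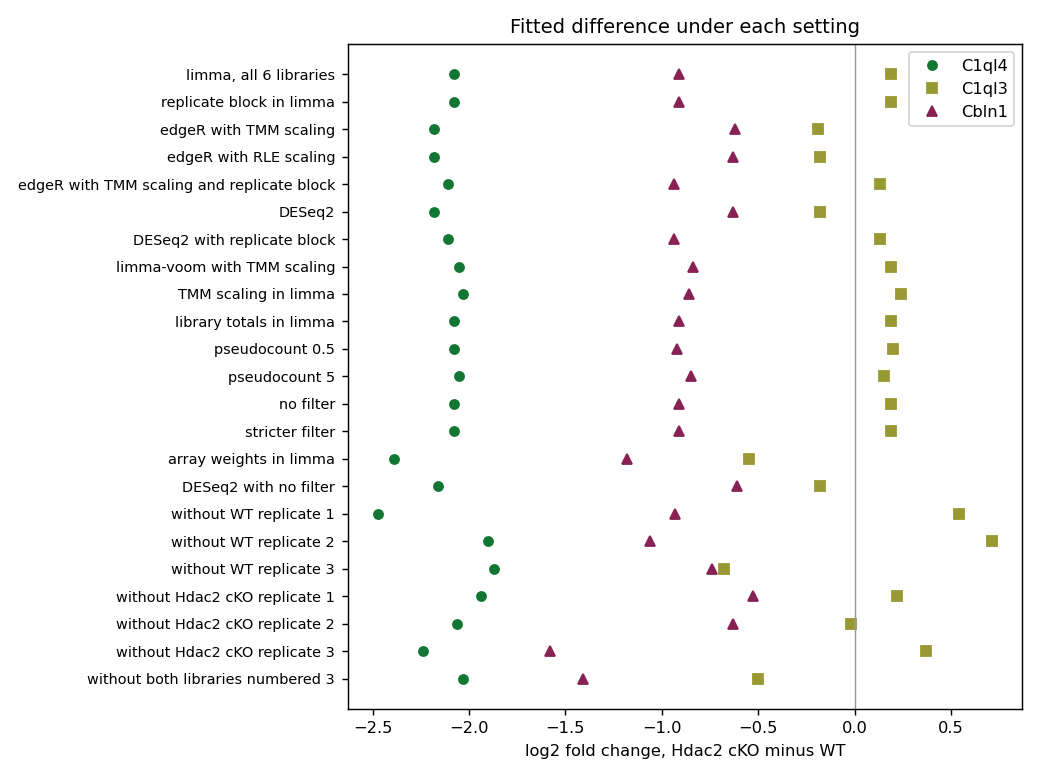
Fitted log2 fold change (Hdac2 cKO minus WT) of C1ql4, C1ql3 and Cbln1 under each tool, scaling, filter and left-out library. C1ql4 stays between -2.47 and -1.87 and Cbln1 between -1.58 and -0.53, while C1ql3 crosses 0 and runs from -0.68 to 0.71.

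The genes whose pattern over the 6 libraries was most like each other member were as follows. For Cbln2 they were Tmx2, Trpc6 and Enpp5 (r = 0.998 each), and for Adgrb3 Gm47572 (0.998), Angptl4 (0.996) and Tra2b (0.995). C1ql1 was nearest to Trp53i11 (0.999), Rbbp9 and Fxyd5 (0.998 each), and C1ql3 to Inppl1, Ubald2 (0.999 each) and Idh3b (0.997). All of these overlapped between groups and were lowest in WT 3. Cbln1 was nearest to Sec14l5 (0.996) and Zfp101 (0.990), which like it were higher in Hdac2 cKO 3 than in Hdac2 cKO 1 and 2. Cbln3 was nearest to Psd (0.964), Olfr1372-ps1 and Tmem196 (0.960 each), and Cbln4 to Ugdh (0.997), Btbd9 (0.992) and Pisd-ps1 (0.988). These values describe 6 libraries only.

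The binding partners of these proteins were measured in the same libraries. Beside Adgrb3, 8 of 9 partner genes passed the filter, of which 6 were higher and 2 lower in the knockout, where 10185 of all 18410 genes tested were higher and 8225 lower. Their median log2 fold change was 0.09, against 0.06 over all genes tested. By limma and by DESeq2 0 of them passed, beside 0% and 0.156% of all genes.

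Nrxn2 and Nrxn3, which encode presynaptic receptors of cerebellins, had log2 fold changes of -0.13 (SE 0.24) and 0.02 (SE 0.59). Nrxn3 differed most by library number, at 4990 in WT 3 and 5243 in Hdac2 cKO 3 against 1590 to 1738 in the other 4 libraries. Grid1, a delta receptor gene, had means of 339.0 ± 121.3 (WT) and 355.9 ± 91.81 (Hdac2 cKO; SD, n = 3 each). The kainate receptor genes Grik2 and Grik4 had log2 fold changes of 0.07 (SE 0.23) and -0.33 (SE 0.32), and Neo1 had one of 0.38 (SE 0.25). Dcc did not pass the filter: it stood at 91.99 in WT 3 and at 2.798 to 16.71 in the other libraries.

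The relatives of Adgrb3 and the proteins it works with inside the cell also overlapped between groups, apart from Magi1, a membrane scaffold (4740 ± 589.2 in WT, 5715 ± 278.7 in Hdac2 cKO, SD, n = 3 each). Groups did not overlap for 8.54% of all genes tested. Of 11 tested, 6 were higher and 5 lower, with a median of 0.11. By limma and by DESeq2 0 passed, beside 0% and 0.156% of all genes. Adgrb1 had means of 1412 ± 329.9 (WT) and 1296 ± 84.56 (Hdac2 cKO), and Adgrb2 of 521.5 ± 75.04 and 411.9 ± 76.85 (SD, n = 3 each). Elmo1 and Dock1, which carry the signal of these receptors to Rac1, had log2 fold changes of 0.33 (SE 0.35) and -0.14 (SE 0.27), and Rac1 itself of -0.14 (SE 0.18).

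Other secreted genes with a C1q domain, most of them of complement and adipokine-like proteins, gave 4 higher and 8 lower of 12 tested, with a median of -0.39. Of these 0 passed by limma or DESeq2, beside 0% and 0.156% of all genes. Groups did not overlap for 1 of the 12, beside 8.54% of all genes tested. C1qtnf9, chosen after its values were seen, was lower without overlap, at 24.71, 14.89 and 40.88 across WT 1 to 3, against 12.12, 11.79 and 13.29 across Hdac2 cKO 1 to 3. The complement genes C1qa, C1qb and C1qc, which macrophages express, had log2 fold changes of -0.12, 0.53 and 0.07, and macrophage markers as a list had a median of 0.37.

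Of 39 other trans-synaptic organiser genes tested, 24 were higher and 15 lower in the knockout (median log2 fold change 0.21). Groups did not overlap for 8 of the 39, beside 8.54% of all genes tested. By limma and by DESeq2 0 passed, beside 0% and 0.156% of all genes. The 4 with the highest mean over the 6 libraries were Clstn1, Cadm3, Cadm1 and Ptprf. Clstn1, a calsyntenin, had means of 17160 ± 3522 (WT) and 15890 ± 1471 (Hdac2 cKO), and Cadm1, an adhesion molecule, of 9477 ± 494.4 and 12630 ± 2825 without overlap (SD, n = 3 each). Cadm3 and Ptprf had log2 fold changes of 0.36 (SE 0.54) and 0.36 (SE 0.34), with WT 3 the lowest library for both. Cadm4, named after its values were seen, had a higher WT mean than Cadm1 and Ptprf and was lower in the knockout without overlap, at 10130 ± 1847 (WT) and 6268 ± 1694 (Hdac2 cKO; SD, n = 3 each). The fitted difference of Cadm4 was -0.72 (SE 0.27, adjusted p = 0.927 by limma).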

How the data were processed

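Bulk RNA-seq of dorsal root ganglia was read in 3 WT and 3 Hdac2 cKO libraries. Titles gave the groups and replicate numbers, and table columns were matched to titles by name (w1 and w3 as WT 1 and 3). The submitters' processing notes name mm10 and the tools HISAT2, SAMtools, featureCounts and DESeq2. Versions, annotation, strand setting and multi-mapping options were not given in the sources used here. The signal values the authors deposited were read counts per gene, each library scaled by its own factor. Every value was a whole multiple of the lowest non-zero one of its column (tolerance 0.01, largest distance 0.000363), which recovered the reads. Among genes with 1 to 20 reads, 42.4% of counts were even in WT 2 and 60.2 to 64.4% in the others. The cause was not tested, so a read may not be the same unit in WT 2 as elsewhere. Floors of 3 reads may therefore be too low. No replicates agreed within sampling noise (chi-square per gene at least 17.8).

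The members and lists were chosen with earlier results of these data known. limma 3.58.1 (R 4.3.3; intensity trend, robust) was fitted on log2 (value + 1), a scale that understates changes of low genes, to 18410 genes that reached 10 in 3 or more libraries; two-sided p-values had Benjamini-Hochberg adjustment (threshold 0.05). Recovered reads were tested with edgeR 4.0.16 and DESeq2 1.42.0 on the same genes. Alternatives were limma-voom, TMM scaling, library totals, pseudocounts of 0.5 and 5, no filter, a filter of 50, array weights, the replicate block, leaving out each library and both libraries numbered 3; DESeq2 with no filter was added after seeing the data. RPKM used exon-union lengths of GENCODE M21 (GRCm38). A 0 allows up to 3 reads; intervals and floors cover counting error only. The scripts were tested on simulated data. Protein identity was planned; coding sequences were compared instead (global alignment), as no protein table was used here.

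Named genes were the 9 members, their binding partners (some are not reported here), up to 4 abundant genes of each other list and the 3 genes most alike each tested member. Adgrb1 and Adgrb2 fell outside this rule and were named as relatives of Adgrb3, not for their abundance. Genes beside C1ql4, Magi1, C1qtnf9, Cadm4, Elmo1, Dock1, Rac1 and the C1q complement genes were chosen after their values were seen. Between libraries of the same number, deviations from group means had correlations of 0.40 (number 1), 0.15 (number 2) and 0.42 (number 3). The replicate block treats these numbers as pairs, which the labels do not say and these correlations do not establish. Hdac2 cKO 2 correlated more with WT 1 (0.34) than with WT 2 (0.15). Both libraries numbered 3 stood apart from their groups, which by itself can give such correlations.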

Additional observations from a re-analysis of the deposited data

How the results depend on the processing

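C1ql4 was lower in Hdac2 cKO in all 22 alternatives, from -2.47 to -1.87. It was taken up as lower in these same libraries, and its groups did not overlap. Leaving out a library could therefore not turn its direction, which shows no stability. Cbln1, Cbln4 and Adgrb3 also kept their direction in every alternative that gave a value. For Adgrb3 the difference fell to 0.05 (SE 0.18) without WT 3 and to 0.02 (SE 0.18) without both libraries numbered 3. Cbln4 reached the filter level only in Hdac2 cKO 1, Hdac2 cKO 3 and WT 3, so the filter favoured its direction. Cbln3 passed the filter only through the knockout libraries, so its direction shows no stability either. C1ql4 was called by DESeq2 (adjusted p = 0.000588), DESeq2 with no filter (0.000738), DESeq2 with replicate block (1.74e-07) and limma with array weights (0.00173, weights 0.101 to 4.17 across libraries), which each called 1 member; its adjusted p ran up to 1 elsewhere. With the replicate block limma called 0 members and 0 genes, with C1ql4 at -2.08 (adjusted p = 0.674). Genes called over all were 0 by limma, 28 by DESeq2, 26 with no filter, 79 with the block, 567 with array weights and 5 without both libraries numbered 3; leaving out each library gave 0 genes and 0 members. C1ql1 turned from 0.67 to -0.41 with edgeR (TMM or RLE) and DESeq2 (with or without filter), -0.88 with array weights, -1.30 without WT 3, -0.01 without Hdac2 cKO 2 and -0.28 without both libraries numbered 3; leaving out 1 library gave -1.30 to 2.08. C1ql3 turned from 0.19 to -0.19 with edgeR TMM, -0.18 with edgeR RLE and DESeq2 (with or without filter), -0.55 with array weights, -0.68 without WT 3, -0.02 without Hdac2 cKO 2 and -0.50 without both libraries numbered 3; leaving out 1 library gave -0.68 to 0.71. Cbln2 turned from 0.29 to -0.08 without WT 3 and -0.07 without both libraries numbered 3, and leaving out 1 library gave up to 0.54. The cause was not tested. The stricter filter gave no value for C1ql1, Cbln3 and Cbln4. The count of members without overlap was 2 with each scaling. Depth limits C1ql2, Cbln3 and Cbln4, with 47 to 81 reads over all libraries.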
